A study of Mus musculus with 2 samples.

Results

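The chemokine ligands of the mouse were followed in single mammary cells of 2 libraries. Members were all genes whose symbol begins with Cxcl, Ccl, Cx3cl or Xcl and a digit, which took 44 of the 31053 gene rows of the files and 39 different symbols. Of these 44 rows, 29 held at least 20 unique molecular identifiers (UMIs, each 1 counted RNA molecule) over both libraries and are described here, 15 held fewer, and 9 of those 15 held none. Ccl12 and Ccl3 lay just inside the threshold, with 27 UMIs each, and Ccl28 with 18 and Ccl22 with 6 lay just outside it. Both libraries came from C57BL/6 mice whose miR-200c/141 locus was flanked by loxP sites on both alleles and which were given tamoxifen at 8 to 10 weeks of age, with the glands taken 4 weeks later and mammary cells enriched with FACS. An age of 8 weeks is stated in the labels too. The library called Ctrl has the genotype miR-200c/141-flox/flox with no Cre named, and the library called cKO has K8-CreERT2;miR-200c/141-flox/flox, a tamoxifen-inducible Cre under the promoter of keratin 8. There was 1 library per group, and the labels do not say how many mice entered it, so no test between groups was possible. Genotype and library cannot be told apart, and every interval below is a 95% interval of counting error that says nothing of the spread between mice.

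Chemokines are small secreted proteins that bind G-protein-coupled receptors and guide the migration of leukocytes. Some are induced in injury and infection, among them the ligands of CXCR2 that draw neutrophils and the interferon-induced ligands of CXCR3 that draw activated T cells. Others are made at rest and lay out tissues, such as Ccl19 and Ccl21a, the ligands of CCR7, and Cxcl13, the ligand of CXCR5, which place lymphocytes in lymphoid tissue. In the mammary gland the luminal epithelium, the basal (myoepithelial) layer, the vessels and the fibroblasts can all serve as sources.

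The 2 microRNAs encoded by the deleted locus are shown because the groups differ by them. They lie on the minus strand of chromosome 6 (RefSeq, GRCm38.p6), miR-200c-3p at chr6:124718324-124718346 and miR-141-3p at chr6:124717917-124717938. Capitals mark the seed, bases 2 to 8, which pairs with target sites.
miR-200c-3p: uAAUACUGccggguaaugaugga
miR-141-3p: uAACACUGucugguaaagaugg
The 7-base match to the miR-200c-3p seed, CAGTATT, stood in the 3′ untranslated region (the longest one annotated per gene) of 3 of the 29 ligands (Ccl6, Ccl9 and Cxcl3), against 13.3% of 20986 genes. The match to the miR-141-3p seed, CAGTGTT, stood in 4 of 29 (Cx3cl1, Cxcl12, Cxcl16 and Cxcl2), against 17.2% of genes. The median region was 644 bases long for the ligands and 961 for all genes. These are matches of letters and not tested sites. The matches of Cxcl2, Cxcl12, Cxcl16 and Cxcl3 are shown, because these ligands are described below, from the GENCODE M21 transcripts, with the 7 bases in capitals.
Cxcl2, miR-141-3p match: ttaggtttCAGTGTTtgtaaact
Cxcl12, the first miR-141-3p match: tctgaagtCAGTGTTagggaagg
Cxcl12, the second miR-141-3p match: gatgggttCAGTGTTgtgtgtgg
Cxcl16, miR-141-3p match: tgcctctgCAGTGTTgggattaa
Cxcl3, miR-200c-3p match: ttctgaggCAGTATTccttggct

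Cxcl5, Cxcl3, Cxcl15, Cxcl1 and Cxcl2 lie in that order on the plus strand of chromosome 5, between base 90759360, where Cxcl5 starts, and base 90905938, where Cxcl2 ends (GRCm38, GENCODE M21). The 120 bases before the RefSeq start sites of 4 of them are shown (plus strand, GRCm38.p6), because Cxcl1 and Cxcl2 were at least 2-fold higher in epithelial-gated cKO cells while the level of their neighbour Cxcl15 was lower. Capitals mark matches, on either strand, to a form of the motif bound by NF-kB: GGG, then 2 bases of any kind, then TTTCC. Other forms of it were not searched, so bases in small letters may hold them.
Cxcl1, chr5:90891125-90891244: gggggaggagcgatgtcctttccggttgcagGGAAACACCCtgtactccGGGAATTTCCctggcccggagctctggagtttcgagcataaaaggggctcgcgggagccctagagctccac
Cxcl2, chr5:90903779-90903898: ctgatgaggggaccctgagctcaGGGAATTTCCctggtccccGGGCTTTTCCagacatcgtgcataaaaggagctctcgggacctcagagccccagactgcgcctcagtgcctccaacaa
Cxcl3, chr5:90785981-90786100: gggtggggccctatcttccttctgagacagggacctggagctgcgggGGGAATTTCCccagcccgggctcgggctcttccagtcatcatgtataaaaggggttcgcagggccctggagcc
Cxcl15, chr5:90794414-90794533: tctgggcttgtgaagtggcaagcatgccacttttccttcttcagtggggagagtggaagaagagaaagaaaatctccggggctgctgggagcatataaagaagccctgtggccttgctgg
RefSeq windows of GRCm38.p6, 24 in all, were found for 21 of the 29 ligands. Cxcl5, the remaining gene of this cluster and also lower in epithelial-gated cKO cells, had no window and was not examined. In the 250 bases before the start site this form of the NF-kB motif stood in Cxcl1, Cxcl2, Cxcl3, Ccl20 and Ccl9, 5 of the 24 windows, against 1.41% of 32851 windows. A form of the interferon-stimulated response element, GAAA, then 2 bases of any kind, then GAAA, stood on either strand in Cxcl10, Ccl19 and Cxcl14, 3 of the 24 windows, against 2.98% of all windows. The Cxcl10 match lay 213 to 204 bases before its start site, and 110 bases around it are shown for comparison (minus strand).
Cxcl10, chr5:92349020-92349129: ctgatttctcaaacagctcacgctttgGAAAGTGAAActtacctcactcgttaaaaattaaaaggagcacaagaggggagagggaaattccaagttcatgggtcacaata
A match is a description of letters, and its absence from a window says nothing of the factor.

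After filtering, 3389 cells were used from Ctrl (median 19799 UMIs) and 5438 from cKO (median 13905). The libraries shared 6 cell barcodes, 5 of them among the cells used. Cells were placed by marker genes that include no chemokine. The epithelial gate took 3250 Ctrl and 4843 cKO cells, the endothelial gate 108 and 495, and the fibroblast gate 9 and 26. Another 21 and 73 cells passed no gate or more than 1, and the pan-leukocyte gate took 1 cell in each library. The labelled tissue was checked with the epithelial list, whose 12 markers summed to 34859 CPM (counts per 1000000 UMIs of the gate) in epithelial-gated Ctrl cells and 40068 in cKO, against 226 and 268 in endothelial-gated cells. The 12 endothelial markers summed to 4042 and 3506 CPM in their own gate and to 39.9 and 46.3 in the epithelial gate, and the 12 fibroblast markers to 14696 and 10108 in theirs and to 264 and 208 in the epithelial gate. The level of Krt8, the gene whose promoter the Cre transgene uses, was 4277 and 3903 CPM in epithelial-gated cells and 28.5 and 29.9 CPM in endothelial-gated ones. Of the 7 pan-leukocyte markers, 6 had a UMI in epithelial-gated Ctrl cells (17.6 CPM summed) and all 7 in cKO (9.02 CPM). Only Ptprc (CD45) had none in Ctrl. The deleted hairpins themselves were not analysed here.

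The 29 ligands took a larger share of all UMIs in the stroma than in the epithelium. They made up 0.219% of epithelial UMIs in Ctrl and 0.379% in cKO, 1.5% and 1.34% in the endothelial gate, and 6.23% and 11.8% in the fibroblast gate. For 22 of 29 ligands the gate with the highest level was the same in both libraries: the fibroblast gate for 13, the epithelial gate for 8 and the endothelial gate for 1 (Cxcl10). The fibroblast levels rest on 9 and 26 cells, so a level at or near the top there can come from few cells. Since cells differ so much in number, the UMIs themselves were mostly epithelial, 87.4% of the Cxcl1 UMIs in Ctrl and 87.6% in cKO, for example.

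**Figure D1:**
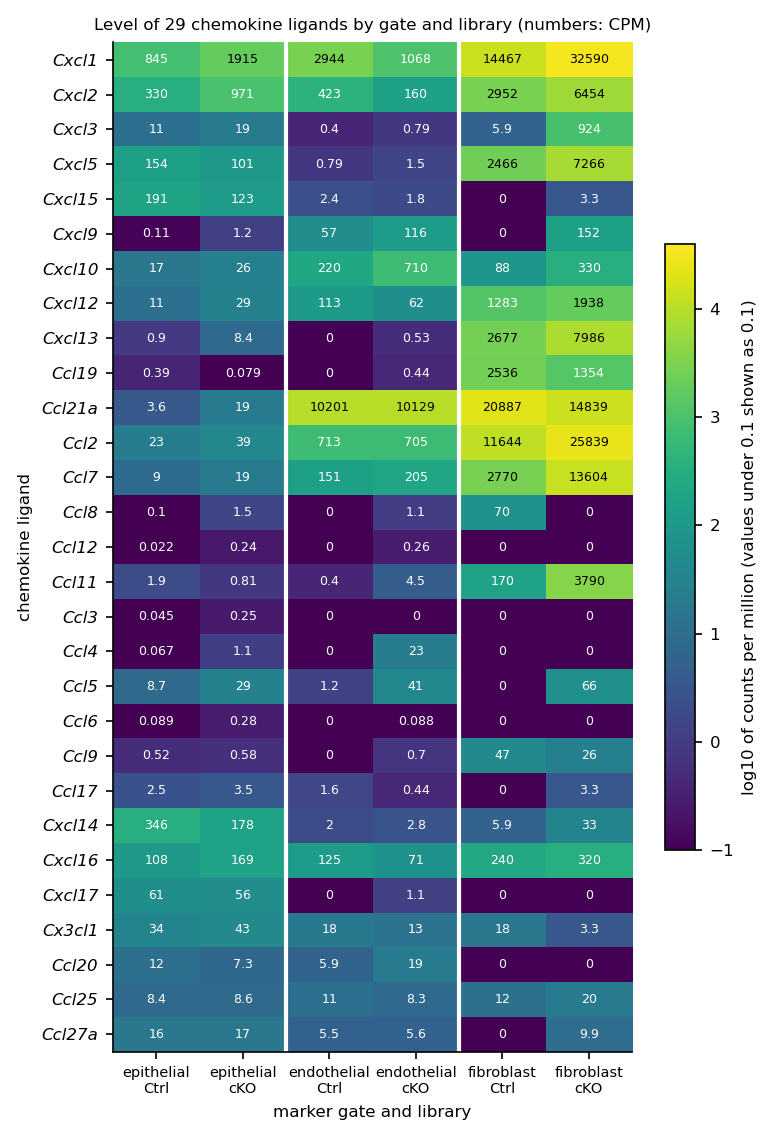
Level of each of the 29 ligands (rows) in CPM, printed in each square and coloured on a log10 scale, for the epithelial, endothelial and fibroblast gates of both libraries (columns). Cxcl15, Cxcl17 and Cxcl14 are highest in the epithelial columns, and Cxcl1, Ccl2 and Ccl7 in the fibroblast columns.

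In epithelial-gated cells 13 of 29 ligands were at least 2-fold higher in cKO, where 6.90% of 15166 genes were, and 2 were at least 2-fold lower, where 6.36% were. A ligand was compared where it had at least 20 UMIs in the gate over both libraries. The median log2 ratio of cKO over Ctrl was 0.74 over the ligands and -0.11 over all genes compared. The higher ones were Cxcl1, Cxcl2, Cxcl9, Cxcl12, Cxcl13, Ccl3, Ccl4, Ccl5, Ccl6, Ccl7, Ccl8, Ccl12 and Ccl21a, and the lower ones Ccl11 and Ccl19. The Ccl19 difference came from 1 Ctrl cell, which held 97.1% of the 35 UMIs, and without the top cell of each library its log2 ratio was 1.02. Some of these ligands were scarce: Ccl3, Ccl6 and Ccl12 had between 21 and 25 UMIs in the 4843 cKO cells. Genes of other marker lists differed as well: the 6 of the high endothelial venule list summed to 28.6 CPM in epithelial-gated Ctrl cells and 296 in cKO. Of these sums Glycam1 made up 27.5 and 293 CPM, and whether epithelial cells made it themselves was not tested. The 10 myeloid markers summed to 9.75 CPM in epithelial-gated Ctrl cells and 15.4 in cKO, the 7 pan-leukocyte markers to 17.6 and 9.02, and the 6 B-cell markers to 0.512 and 3.5. Their part in the count was not tested. The 13 include Ccl21a and Cxcl13, for which the part of RNA from outside the cells was not tested either.

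Cxcl1 and Cxcl2, which recruit neutrophils through CXCR2, carried most of the epithelial difference in UMIs. Epithelial-gated cells had 845 CPM of Cxcl1 in Ctrl (839 to 851) and 1915 in cKO (1906 to 1924), a ratio of 2.27 (2.25 to 2.29). Cxcl2 stood at 330 CPM in Ctrl and 971 in cKO, which makes a ratio of 2.95 (2.91 to 2.99). Both levels were therefore higher in cKO, and no cKO cell held more than 0.851% of the UMIs of either gene. Cxcl2 was the more unevenly spread: the 10% of cells with the most Cxcl2 held 89.4% of its UMIs in Ctrl and 78.3% in cKO.

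Among the epithelial subgates, hormone-sensing cells had 13 of 23 ligands at least 2-fold higher in cKO (8.19% of all genes compared) and 2 lower (7.59%), and luminal progenitors had 10 of 23 higher (4.86%) and 0 lower (4.43%). Cells with both luminal marker sets had 8 of 25 higher (6.17%) and 4 lower (7.17%), and basal cells 7 of 19 higher (3.36%) and 0 lower (3.46%). Cxcl2 and Cxcl12 were the ligands higher by 2-fold in all 4 subgates. No ligand was lower by 2-fold in more than 2 of them. Without each gene's top cell 14 of 15, 10 of 10, 10 of 12 and 6 of 7 of these calls stayed past 2-fold. Cells with both luminal marker sets were the deepest luminal cells, with a median of 49537 UMIs in Ctrl and 28739.5 in cKO. The medians were 21169 and 13019.5 in hormone-sensing cells and 23026 and 14878.5 in luminal progenitors. The part of depth or of missed doublets in the subgate with both sets was not tested.

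The size of the Cxcl1 difference varied between epithelial subgates. Luminal progenitor-gated cells had 1273 CPM in Ctrl and 3315 in cKO, 2.60 times as much. Their marker list held Kit, Elf5, Aldh1a3, Csn3, Cd14, Lcn2, Mfge8, Trf and Wfdc18. In cells with both luminal marker sets the values were 681 and 1723 CPM, and in basal-gated cells 985 and 1461. Hormone-sensing cells, the luminal kind that carries the estrogen and progesterone receptors, had 311 and 381 CPM, a ratio of 1.23 (1.18 to 1.28). Luminal progenitors thus had the highest level in both libraries and the highest ratio, and hormone-sensing cells the lowest of each. Whether these ratios differ beyond the spread between mice could not be tested. Whether genes of the luminal progenitor list, such as Cd14 and Lcn2, vary along with Cxcl1 or Cxcl2 was not tested.

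Cxcl2 was also highest in luminal progenitors and lowest in hormone-sensing cells. Luminal progenitors had 541 CPM in Ctrl and 1785 in cKO, cells with both luminal sets 290 and 864, basal cells 268 and 690, and hormone-sensing cells 25.0 and 57.1. The ratios were 3.3, 2.98, 2.58 and 2.28, so this ligand was at least 2-fold higher in cKO in all 4 epithelial subgates. More cells carried it as well: with every cell thinned to 1000 UMIs, 18.1% of luminal progenitors had a Cxcl2 UMI in Ctrl and 37.3% in cKO, and for Cxcl1 40.6% and 65.0%. In hormone-sensing cells the thinned share for Cxcl1 was 16.0% and 16.3%, nearly the same. Before thinning, 32.5% of epithelial-gated Ctrl cells and 44.8% of cKO cells had a Cxcl2 UMI, and 11.0% and 21.9% after it. UMIs of both genes occurred together in 930 Ctrl and 1994 cKO cells, out of 1055 and 2168 cells with Cxcl2.

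**Figure D2:**
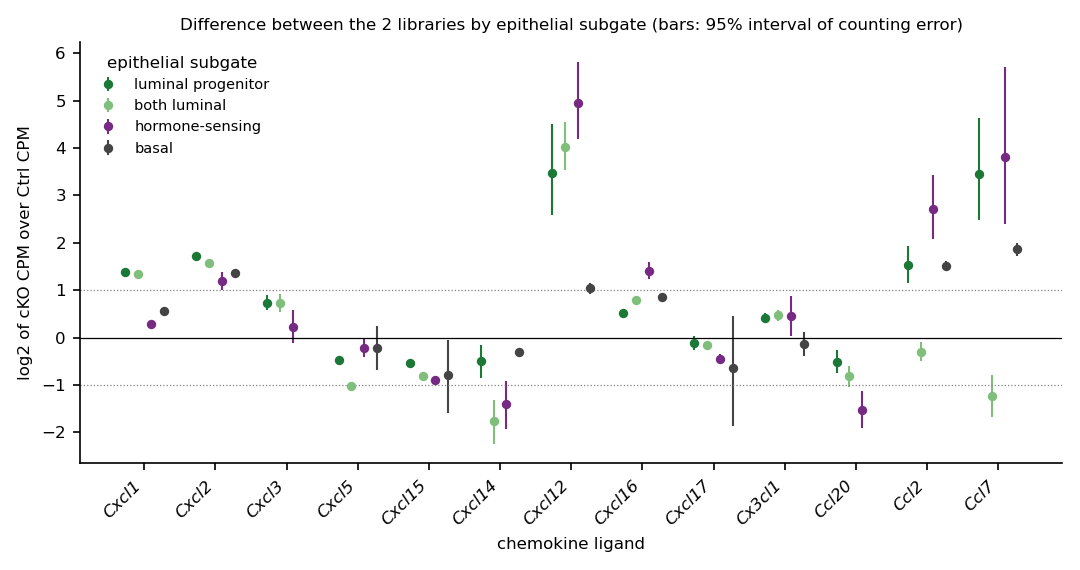
Log2 ratio of cKO over Ctrl CPM (vertical axis) for 13 ligands in the luminal progenitor, both luminal, hormone-sensing and basal subgates; bars are 95% intervals of counting error and dotted lines mark 2-fold. Cxcl2 lies above the upper dotted line in every subgate, Cxcl15 lies below 0 in every subgate, and Cxcl1 runs from 0.30 in hormone-sensing cells to 1.38 in luminal progenitors.

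Cxcl3, Cxcl5 and Cxcl15, the other ligands of the chromosome 5 cluster, did not reach 2-fold in the epithelial gate. Cxcl3 stood at 11.2 CPM in epithelial-gated Ctrl cells and 18.8 in cKO, which makes a ratio of 1.68 (1.56 to 1.82), and was found in 179 and 284 cells. Cxcl5, another neutrophil attractant, was lower in cKO, at 154 and 101 CPM, 1.52-fold lower (1.48 to 1.56). Its level was highest in luminal progenitors, 290 and 210 CPM, and the lowest ratio was in cells with both luminal sets, 151 and 73.7 CPM, 2.04-fold lower. Cxcl15, a chemokine known from lung epithelium, was lower in cKO as well, at 191 and 123 CPM. Hormone-sensing cells had the most Cxcl15, 418 CPM in Ctrl and 224 in cKO, 1.87-fold lower (1.79 to 1.95), and the thinned share of these cells with a UMI was 30.8% and 17.3%. In basal cells Cxcl15 had 58 and 21 UMIs in all. Cxcl1 and Cxcl2 were thus higher in cKO and Cxcl5 and Cxcl15 lower within the same sums of cells.

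Cxcl14, made by many resting epithelia, marked the basal cells. Basal-gated cells had 2381 CPM in Ctrl and 1918 in cKO, which makes a ratio of 0.81 (0.79 to 0.82), and 84.3% and 76.0% of thinned basal cells had a UMI. In the whole epithelial gate the values were 346 and 178 CPM, 1.94-fold lower in cKO (1.90 to 1.98). Basal-gated cells were 31.6% of the cells kept in Ctrl and 18% in cKO, so most of the gate-wide difference was not present within the basal cells themselves. The 3 luminal subgates had between 1.52 and 7.99 CPM of Cxcl14. Of the 31082 epithelial UMIs in Ctrl, 30319 were in basal cells.

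Cxcl12, the ligand of CXCR4 and ACKR3 and usually a product of stroma, was also highest in basal cells among the epithelial subgates. Basal-gated cells had 71.6 CPM in Ctrl and 147 in cKO, which makes a ratio of 2.05 (1.88 to 2.24). In hormone-sensing cells it stood at 1.16 CPM in Ctrl (14 UMIs in 10 cells) and at 35.8 CPM in cKO (632 UMIs in 241 cells), a ratio of 30.8 (18.2 to 56.6). Cells with both luminal sets had 0.979 and 16.0 CPM, and luminal progenitors 0.423 and 4.70. The top hormone-sensing cKO cell held 3.01% of the UMIs, and without the top cell of each library the log2 ratio was 5.12. The gate-wide ratio, 2.60 (2.42 to 2.8), was much smaller than the luminal ones, because basal cells held 912 of the 994 Ctrl UMIs. Hormone-sensing cKO cells with a Cxcl12 UMI were 3.24% after thinning, against 0.121% in Ctrl and 12.9% of basal cKO cells.

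**Figure D3:**
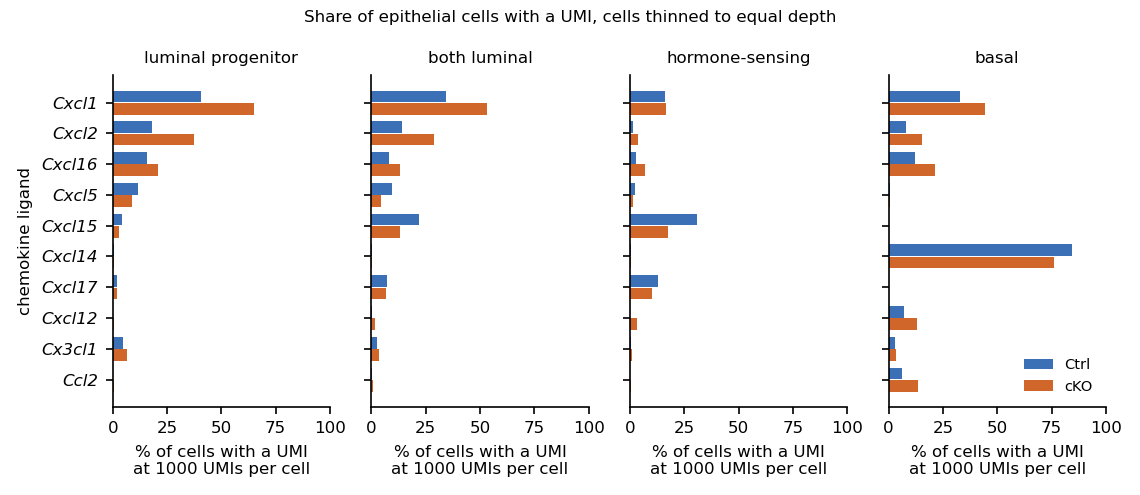
Share of cells with at least 1 UMI (horizontal axis, percent) of 10 ligands in 4 epithelial subgates, as estimated after thinning every cell to 1000 UMIs, for Ctrl (blue) and cKO (orange). Cxcl1 and Cxcl2 bars are longer for cKO in luminal progenitors, cells with both luminal sets and basal cells, and Cxcl15 bars are shorter for cKO in hormone-sensing cells (30.8% and 17.3%).

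Ccl2 and Ccl7, which attract monocytes through CCR2 and lie next to each other on chromosome 11, were mainly basal among epithelial cells. Ccl2 stood at 113 CPM in basal-gated Ctrl cells and 323 in cKO, which makes a ratio of 2.87 (2.69 to 3.06), and Ccl7 at 49.2 and 179 CPM, a ratio of 3.64 (3.31 to 4.00). Thinned shares of basal cells with a UMI were 6.01% and 13.6% for Ccl2 and 3.08% and 9.07% for Ccl7. In cells with both luminal sets 1 Ctrl cell held 80.3% of the Ccl2 UMIs and 91.3% of the Ccl7 UMIs, so the ratios there, 0.81 and 0.43, describe that cell. For Ccl7 the log2 ratio there was 2.20 without the top cell of each library. Over the whole epithelial gate Ccl2 had 23.2 and 38.8 CPM and Ccl7 9.04 and 19.1. The 12 fibroblast markers summed to 472 and 285 CPM in basal-gated cells and the 10 myeloid markers to 9.34 and 6.14, and their part in these values was not tested. Ccl8, encoded nearby, had 9 UMIs in Ctrl and 130 in cKO.

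Ccl11, the eosinophil attractant eotaxin, went the other way in epithelial-gated cells, with 172 UMIs in 28 Ctrl cells and 72 in 26 cKO cells, 2.35-fold lower in CPM in cKO (1.78 to 3.14). Within basal cells, which held 165 of the 172 Ctrl UMIs, it was 1.81-fold lower, 13.0 and 7.14 CPM. The gate-wide value therefore passed 2-fold while the basal value did not.

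The transmembrane ligands were higher in cKO in the epithelial gate by less than 2-fold. Cxcl16, the ligand of CXCR6, stood at 108 CPM in epithelial-gated Ctrl cells and 169 in cKO, which makes a ratio of 1.57 (1.53 to 1.61). It was higher in cKO in all 4 subgates, with ratios of 1.42 in luminal progenitors, 1.73 in cells with both luminal sets, 1.80 in basal cells and 2.66 in hormone-sensing cells (28.7 and 76.4 CPM). Cx3cl1, the ligand of CX3CR1, stood at 34.0 and 43.0 CPM, a ratio of 1.26 (1.20 to 1.33), with its highest level in luminal progenitors, 54.4 and 72.8 CPM. In basal cells the Cx3cl1 interval held 1, with 29.9 and 27.3 CPM (0.77 to 1.08). An antisense neighbour, Zmynd15, overlaps exons of Cxcl16, and the strand setting of the counting is not given in the sources used here.

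Cxcl17, Ccl20, Ccl27a and Ccl25, ligands of mucosa and skin, differed by less than 2-fold in the whole epithelial gate. Cxcl17, a mucosal chemokine, stood at 142 CPM in hormone-sensing Ctrl cells and 104 in cKO, 1.36-fold lower (1.27 to 1.45). These levels lay above those of the whole gate, 60.8 and 56.2 CPM. Ccl20, the ligand of CCR6, stood at 11.8 and 7.32 CPM in the gate, and at 14 and 4.87 in hormone-sensing cells, 2.87-fold lower (2.20 to 3.76). Ccl27a, the ligand of CCR10, had 16.2 and 16.8 CPM, a ratio of 1.03 (0.96 to 1.11), and Ccl25, the ligand of CCR9, had 8.39 and 8.65 CPM, also a ratio of 1.03 (0.93 to 1.14). For both, the interval held 1. Exons of Ccl27a overlap those of Il11ra1 on the other strand, and those of Ccl25 overlap Elavl1, so part of their UMIs may belong to those genes. Ccl17, a CCR4 ligand, stood at 2.54 and 3.46 CPM, and at 0.832 and 3.57 in hormone-sensing cells, where it was at least 2-fold higher in cKO.

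Inflammatory CC ligands were scarce in the epithelium. Ccl5 stood at 8.66 CPM in Ctrl and 29.2 in cKO, which makes a ratio of 3.37 (3.11 to 3.65), and was found in 73 and 179 cells. In luminal progenitors it had 18.7 and 48.0 CPM and in cells with both luminal sets 6.59 and 27.1, while 1 hormone-sensing cKO cell held 84.5% of the UMIs of that subgate. Ccl4 had 6 UMIs in Ctrl and 98 in 54 cKO cells, Ccl9 had 47 and 51, and Cxcl9 had 10 and 104. Cxcl10, a CXCR3 ligand, stood at 16.7 and 25.8 CPM, a ratio of 1.55 (1.45 to 1.65), with 25.6% of the Ctrl UMIs in 1 cell. Its exons overlap those of Art3 on the other strand.

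Ccl21a in epithelial-gated cells differed alongside Glycam1, a gene of the high endothelial venule list, and Cxcl13 differed as well. Whether epithelial cells made the Glycam1 RNA themselves was not tested. Ccl21a stood at 3.64 CPM in Ctrl and 19.1 in cKO, and Cxcl13 at 0.901 and 8.41. Glycam1, which encodes a mucin of high endothelial venules, stood at 27.5 and 293 CPM in the same cells and had a UMI in 47.0% and 86.8% of them. The 6 markers of high endothelial venules summed to 28.6 and 296 CPM, nearly all of it Glycam1, and all 6 had a UMI in both libraries. There were 13.2 Ccl21a UMIs per 100 Glycam1 UMIs in epithelial-gated Ctrl cells and 6.52 in cKO, against 8.25 and 8.55 in high endothelial cells. How much of the epithelial Ccl21a was RNA from outside the cells was not tested, and the epithelial level is not read as expression. In cKO 1 hormone-sensing cell held 407 of the 728 Ccl21a UMIs of its subgate, with 321 left without it. For Cxcl13 luminal progenitors had 1 UMI in Ctrl and 124 in 39 cKO cells, and the part of free RNA in these was not tested. Endothelial-gated cells held 0% of the Cxcl13 UMIs in Ctrl and 0.0917% in cKO, and fibroblast-gated cells 84.5% and 37.0%. The 12 fibroblast markers summed to 264 and 208 CPM in epithelial-gated cells.

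In endothelial-gated cells 6 of 18 ligands compared were at least 2-fold higher in cKO (8.66% of 10733 genes) and 2 were at least 2-fold lower (3.44%). The median log2 ratio was 0.01 over the ligands and 0.08 over all genes compared. The higher ones were Cxcl9, Cxcl10, Ccl4, Ccl5, Ccl11 and Ccl20, and the lower ones Cxcl1 and Cxcl2. The Ccl11 value came from 1 cKO cell with 98.0% of its 51 UMIs, and the Ccl5 value largely from 1 with 82.9% of 467. The makeup of the gate differed between libraries: cells with high endothelial markers were 47 of 108 in Ctrl and 298 of 495 in cKO, other endothelial cells 55 and 112, lymphatic cells 6 and 76, and cells with both of those marker sets 0 and 9. Values are therefore given by subgate. High endothelial cells had 1 of 11 ligands at least 2-fold higher (11.5% of all genes compared) and 1 lower (1.95%). Other endothelial cells had 7 of 13 higher (6.98%) and 1 lower (2.83%), and 5 of these 8 stayed past 2-fold without each gene's top cell.

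Cxcl1 was lower in cKO in the endothelial gate, opposite to the epithelium. The level was 2944 CPM in Ctrl and 1068 in cKO, 2.76-fold lower (2.68 to 2.84). The 2 main subgates differed less, with 1842.5 and 941 CPM in high endothelial cells (1.96-fold lower) and 5284 and 2261 in other endothelial cells (2.34-fold lower). The thinned shares of cells with a UMI were 56.5% and 34.7% in the former and 52.5% and 41.5% in the latter. Cxcl2 was 2.64-fold lower in the whole gate, 423 and 160 CPM. In Ctrl 1 cell held 36.9% of its UMIs, and the log2 ratio of -1.40 was -1.01 without the top cell of each library and -0.30 with the subgates weighted equally. Within high endothelial cells it had 68.7 and 34.7 CPM, and within other endothelial cells 1111 and 873, 0.79 times (0.72 to 0.85). The 6 heat shock genes, a list added after the data were seen, also stood lower, at 3405 CPM summed in endothelial-gated Ctrl cells and 1619 in cKO, and 4 of the 6 were at least 2-fold lower there. Their part in the Cxcl1 and Cxcl2 values was not tested.

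Cxcl9 and Cxcl10, induced by interferon, were higher in cKO. Cxcl10 stood at 220 CPM in endothelial-gated Ctrl cells and 710 in cKO, which makes a ratio of 3.23 (2.96 to 3.53), in 14 and 139 cells. In Ctrl 1 cell held 64.9% of the UMIs, and without the top cell of each library the log2 ratio was 3.08 in place of 1.69. By subgate, high endothelial cells had 306 and 614 CPM, and 5.23% and 13.0% of them had a UMI after thinning. Lymphatic cells had no UMI in the 6 Ctrl cells, which allows up to 28.0 CPM, and 1916 CPM in 27 of 76 cKO cells, at least 68.4-fold higher, a bound from very few Ctrl cells. In other endothelial cells 1 cKO cell held 91.4% of the UMIs, and the log2 ratio without the top cells was -0.31, from 1.98. Cxcl9 stood at 56.6 and 116 CPM, with 143 UMIs in 16 Ctrl cells and 1322 in 106 cKO cells, nearly all in high endothelial cells (89.9 and 141 CPM), and 1 Ctrl cell held 46.9% of the Ctrl UMIs. Cxcl9 and Cxcl10 UMIs occurred together in 4 Ctrl and 65 cKO cells.

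**Figure D4:**
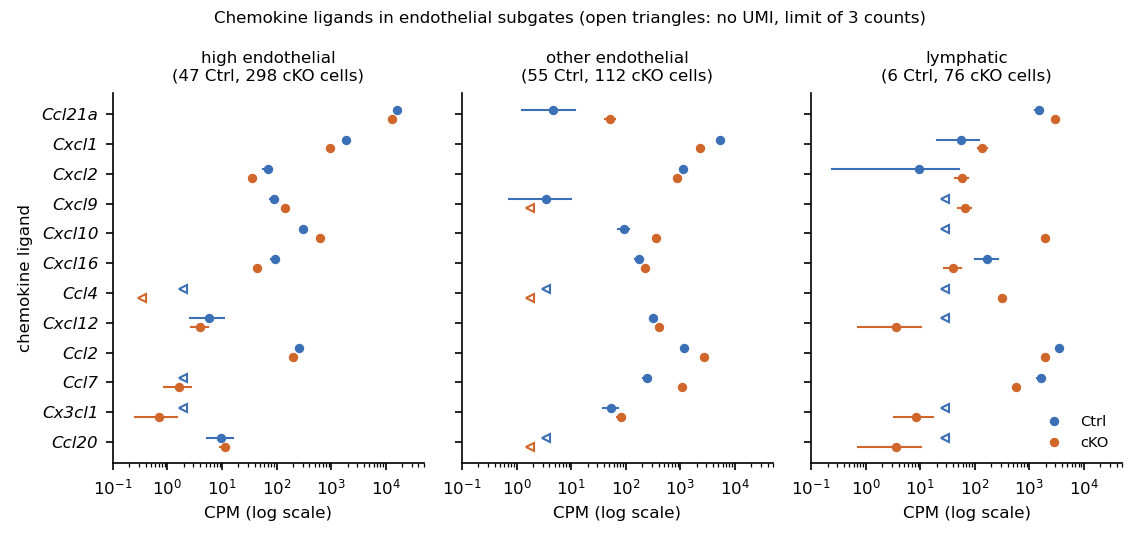
Level in CPM (horizontal log axis, with 95% intervals of counting error) of 12 ligands in high endothelial, other endothelial and lymphatic subgates for Ctrl (blue) and cKO (orange); an open triangle marks the limit that 3 counts allow where no UMI was seen. Ccl21a is highest in high endothelial cells in both libraries, and Ccl2, Ccl7, Cxcl12 and Cx3cl1 are higher in other endothelial than in high endothelial cells.

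Ccl21a, which holds lymphocytes on high endothelium and draws them into lymphoid tissue, was nearly equal in the whole endothelial gate, at 10201 and 10129 CPM, a ratio of 0.99 (0.98 to 1.01). In high endothelial cells it stood at 16466 CPM in Ctrl and 12847 in cKO, 0.78 times as much (0.77 to 0.79), and 78.8% and 79.8% of these cells had a UMI after thinning. Equal totals thus joined a lower level per high endothelial cell and a larger share of such cells. Lymphatic cells had 1504 and 3003 CPM, from 3 and 20 cells with a UMI, and 1 Ctrl cell held 77.0% of the Ctrl UMIs. Rows for other Ccl21 copies held at most 6 UMIs, and copies of Ccl21, Ccl27 and Ccl19 are nearly identical, so reads shared between copies are uncertain.

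Ccl2 and Ccl7 marked the other endothelial and lymphatic cells. Ccl2 had almost the same level in the whole gate, 713 and 705 CPM, but 1189.5 CPM in Ctrl and 2698 in cKO in other endothelial cells, a ratio of 2.27 (2.12 to 2.43). In high endothelial cells it had 256 and 199 CPM, and in lymphatic cells 3503 and 1978. Ccl7 stood at 243 and 1077 CPM in other endothelial cells, where 1 Ctrl cell held 84.8% of 210 UMIs, and at 1607 and 563 in lymphatic cells. The directions thus differed between subgates, though only 6 Ctrl and 76 cKO cells stand behind the lymphatic values. In other endothelial cells 13 and 38 cells carried the Ccl2 UMIs.

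Cxcl12, Cxcl16 and Cx3cl1 were lower in cKO in the whole gate and higher in other endothelial cells. Cxcl12 stood at 113 and 62.5 CPM in the gate, 1.80-fold lower, and at 319 and 401 CPM in other endothelial cells, 1.26 times as high (1.09 to 1.45). Its gate-wide log2 ratio of -0.85 was -0.37 without the top cell of each library and -0.38 as a mean over cells. With the subgates weighted equally it turned to 0.33. Cxcl16 had 125 and 70.6 CPM in the gate, 93.2 and 43.9 in high endothelial cells (2.12-fold lower, 1.74 to 2.58) and 176 and 228 in other endothelial cells. Without the top cell of each library its log2 ratio in high endothelial cells was -0.98 in place of -1.09, just short of 2-fold. Cx3cl1, a fractalkine on the surface of vessels, had 18.2 and 13.5 CPM in the gate and 53.2 and 82.9 in other endothelial cells, a ratio of 1.56 (1.11 to 2.23). With the subgates weighted equally the gate-wide log2 ratio was 0.79 for Cx3cl1, from -0.43, and -0.48 for Cxcl16, from -0.82. Ccl25 had 11.1 and 8.28 CPM. Ccl20 had 15 UMIs in Ctrl and 219 in cKO, and 39.3% of the latter were in 1 cell. Ccl4 had no UMI in Ctrl and 263 in cKO, all of them in 11 lymphatic cells. The Ctrl library had only 6 lymphatic cells, against 76 in cKO, so the absence there rests on very few cells.

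Fibroblast-gated cells had the highest chemokine content, and 11 of 15 ligands compared were at least 2-fold higher in cKO (13.4% of 3019 genes) and 0 were at least 2-fold lower (13.1%). No test stands behind these counts. The median log2 ratio was 1.56 over the ligands and 0.04 over all genes compared. The higher ones were Cxcl1, Cxcl2, Cxcl3, Cxcl5, Cxcl9, Cxcl10, Cxcl13, Ccl2, Ccl5, Ccl7 and Ccl11. Only 9 Ctrl and 26 cKO cells stand behind this, and the libraries' cells overlapped for every ligand that was examined cell by cell. Cxcl9 and Ccl5 had no UMI in the Ctrl cells, so their values are set against 3 counts. All Cxcl9 UMIs were in 1 cKO cell, and its log2 ratio was 0 without that cell. Ccl5 was in 4 cKO cells, and 1 of them held 45% of its UMIs. Without Ctrl cell 4, a cell with 42560 UMIs of which 0.0517% were chemokine, the count of higher ligands was 8 in place of 11. It was also 8 without Ctrl cell 9, and 12 without Ctrl cell 3 or 5.

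Among the neutrophil attractants, Cxcl1 ranged from 0 to 81959 CPM of the cell's own UMIs over the 9 Ctrl fibroblasts, with a median of 17627, and from 285 to 81578 over the 26 cKO fibroblasts, with a median of 30382. The summed levels were 14467 and 32590 CPM, a ratio of 2.25 (2.16 to 2.36). Cxcl5 was found in 5 of 9 Ctrl and 19 of 26 cKO cells, with medians of 164 and 5776 CPM and sums of 2466 and 7266 CPM. Cxcl2 had medians of 580 and 4062 and sums of 2952 and 6454 CPM. The ranges of all 3 ligands overlapped, and the medians lay higher in cKO. The ratios depended on how cells were weighted and gated: the log2 ratio of Cxcl1, 1.17, was 0.33 as a mean over cells and 1.78 at a gate score of 0.8, and over the alternatives that of Cxcl2 lay between 0.39 and 1.95. Cxcl3 was in 1 Ctrl and 3 cKO cells, and 1 of these held 93.9% of 280 UMIs.

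Ccl2, Ccl7 and Ccl11, the ligands for monocytes and eosinophils, were higher in cKO fibroblasts as well. Ccl2 had a median of 8893 CPM in Ctrl, from 0 to 62371, and of 20373 in cKO, from 1112 to 80299, and its log2 ratio of 1.15 lay between 0.52 and 1.97 over the alternatives. Ccl7 had medians of 5082 and 12496 and sums of 2770 and 13604 CPM, a ratio of 4.91 (4.46 to 5.41), and its log2 ratio of 2.30 was 1.17 as a mean over cells. Ccl11 was in 4 of 9 Ctrl cells, up to 1546 CPM, and in 19 of 26 cKO cells, up to 29777, with sums of 170 and 3790 CPM, and its log2 ratio of 4.48 was 1.53 at a gate score of 0.4. For Ccl11 no Ctrl cell reached the upper part of the cKO range, while the lower parts overlapped. The medians were 0 in Ctrl and 702 CPM in cKO, and Ctrl cells 7 and 3 lay above the latter, at 1546 and 917 CPM.

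Ccl19, Ccl21a and Cxcl13, the ligands known from stroma of lymphoid tissue, were often carried by the same cells. All 6 Ctrl fibroblasts with Ccl19 also had Ccl21a and Cxcl13, and so did 21 and 20 of the 25 cKO fibroblasts with Ccl19. Ccl19 had a median of 2062 CPM in Ctrl and 902 in cKO, and sums of 2536 and 1354 CPM, 1.87-fold lower in cKO (1.63 to 2.15), and its log2 ratio of -0.91 was -0.35 without the top cell of each library and -1.48 under the stricter gate. Ccl21a had medians of 24522 and 3792 and sums of 20887 and 14839 CPM, 1.41-fold lower. This direction turned with the gate: the log2 ratio of Ccl21a was -0.49, but 0.80 at a gate score of 0.8 and -1.06 at 0.4. Cxcl13 had medians of 515 and 629 but sums of 2677 and 7986 CPM, because a few cKO cells reached up to 69660 CPM. The 4 cells without Ccl19 were Ctrl cell 4 and Ctrl cells 1 and 6 and cKO cell 22, the last 3 of which had the highest scores for adventitial fibroblast genes, 1.48, 1.07 and 1.0. Cxcl12 was found in 8 of 9 and 26 of 26 cells, with sums of 1283 and 1938 CPM, and its log2 ratio of 0.60 lay between 0.03 at a gate score of 0.4 and 1.24 at 0.8. Cxcl16 had 240 and 320 CPM, with an interval of the ratio that held 1 (0.92 to 1.97), and Cxcl10 had 15 UMIs in 1 Ctrl cell and 100 in 6 cKO cells.

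**Figure D5:**
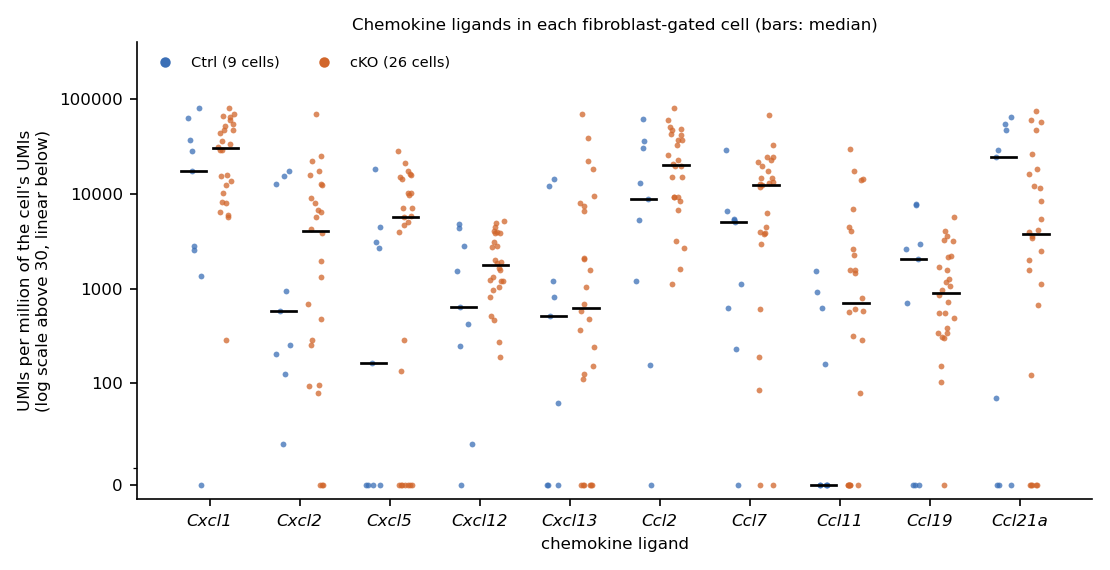
Level of 10 ligands in each fibroblast-gated cell, in CPM of that cell's own UMIs (vertical axis, log scale above 30 and linear below), for 9 Ctrl (blue) and 26 cKO (orange) cells; black bars are medians. The clouds of both libraries overlap for every ligand, while the median of Cxcl5 is higher in cKO (164 and 5776) and that of Ccl21a lower (24522 and 3792), although the summed Ccl21a level was higher in cKO at a gate score of 0.8 (log2 ratio 0.80).

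Markers of other cell types were scarce or differed too. Of the 7 pan-leukocyte markers none had a UMI in the fibroblast gate of Ctrl and 2 had one in cKO (0 and 9.90 CPM summed), and of the 10 myeloid markers 1 and 6 did (5.86 and 59.4 CPM). The 7 pericyte markers summed to 334 and 1093 CPM there, the 10 lymphoid stroma markers to 8961 and 7652, and the 8 adventitial markers to 1025 and 479. Their part in the fibroblast values was not tested.

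Most receptor genes for these ligands had few UMIs, but Ackr1 in the endothelial gate and Ackr3 in basal cells did not. Of 23 receptor genes, 8 had enough UMIs in epithelial-gated cells. Of these 1 was at least 2-fold higher in cKO (Ackr1), where 6.90% of all genes compared were, and 3 were at least 2-fold lower (Cxcr4, Ccr3 and Ackr4), where 6.36% were. Ccrl2, an atypical receptor that presents chemerin, stood at 38.7 and 45.2 CPM, and Ackr3, a scavenger of Cxcl12, at 18.6 and 11.8. Ackr3 was mainly basal, as Cxcl12 was, at 96.1 and 106 CPM there. Cxcr4, the signalling receptor of Cxcl12, had 1.49 and 0.497 CPM. Ackr1, a receptor of venular endothelium, stood at 618 and 764 CPM in endothelial-gated cells and at 0.0779 and 2.40 in epithelial-gated cells, where Glycam1 was higher too. In the endothelial gate 9 receptors were compared, of which Ackr2 was at least 2-fold higher (8.66% of all genes compared) and Cxcr4 at least 2-fold lower (3.44%). In fibroblast-gated cells none of the 23 reached 20 UMIs.

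Genes that regulate chemokines were compared as a list of 30. In epithelial-gated cells 5 of 29 with enough UMIs were at least 2-fold higher in cKO (Tnf, Il1a, Il1b, Irf1 and Dpp4), where 6.90% of all genes compared were, and 0 lower, where 6.36% were. The median of their log2 ratios was 0.13. Tnf, the cytokine that activates NF-kB, stood at 64.4 and 150 CPM in the gate and at 107 and 244 in luminal progenitors. Nfkbia, the NF-kB inhibitor and itself an NF-kB target, stood at 1407 and 2326 CPM (log2 ratio 0.73), and in basal cells at 432 and 1198 (log2 ratio 1.47). Cebpb, Cebpd, Zfp36, Relb and Ifngr1, the others of the 6 with the most UMIs, had log2 ratios between -0.12 and 0.13. Il1b, interleukin 1 beta, had 0.645 and 2.78 CPM. In the endothelial gate Irf1, an interferon-induced factor, stood at 70.4 and 132 CPM. In the fibroblast gate 7 of 20 were higher (13.4% of all genes compared), among them Il6 and Il1r1, and 3 lower (13.1%), namely Relb, Nfkbiz and Ifngr2. The count of lower ones is near the share over all genes. The 10 immediate early genes, a list added after the data were seen, summed to 6795 CPM in epithelial-gated Ctrl cells and 9212 in cKO, and the 6 heat shock genes to 2643 and 1744. Their part in the ligand values was not tested.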

How the data were processed

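Single-cell RNA-seq libraries of mouse mammary cells, 1 Ctrl and 1 cKO, were used. The deposited values are counts, whole UMIs per gene and barcode without normalization. Cell Ranger 2 and mm10 are named in the submitters' processing notes, and the file headers give a software version of 3.0.0. Positions are GRCm38 (GENCODE M21). The files held 4237 Ctrl barcodes with 95520633 UMIs and 6257 cKO barcodes with 103668011.

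Cells with at least 500 genes and at most 10% mitochondrial UMIs were kept (3416 and 5493). Doublets were called by Scrublet in scanpy 1.11.5 (expected rate 0.8% for each 1000 cells), 27 and 55 of them (0.790% and 1.00%), which were removed; doublets it missed remain among the cells. A gate took cells whose mean log value (counts per 10000, plus 1) over its own marker list was at least 0.6 and under 0.6 for the epithelial, endothelial, fibroblast and pan-leukocyte lists other than its own. Subgates used 0.8 (hormone-sensing, luminal progenitor, both, basal) and 0.6 (high endothelial, lymphatic). Gates are rebuilt names: 3 and 9 epithelial, 4 and 33 endothelial and 7 and 9 fibroblast cells lay within 0.1 of the threshold.

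UMIs were summed per gate and library and given as CPM, counts per 1000000 UMIs. Levels have exact Poisson, ratios exact conditional binomial intervals (95%), which cover counting error only. A sum of 0 was set to 3 counts. With 1 library per group no test was run, and a gene counted as higher or lower at 2-fold with at least 20 UMIs in the gate. All 29 ligands are described, with levels where a gate held at least 100 UMIs, and up to 6 members of other lists by UMIs. Shares were computed at 1000 UMIs per cell, leaving out 9 Ctrl and 10 cKO epithelial cells. Calls and thinning were tested on simulated data. The members and lists were chosen with earlier results of these data known. Alternatives covered fold, UMI minimum, scaling, gates, filters, doublets and single cells. One result of the regulation list in endothelial-gated cells is not reported here.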

Additional observations from a re-analysis of the deposited data

Results flagged for a closer look

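Cxcl1, Cxcl2 and Ccl11 were at least 2-fold apart between the libraries in opposite directions in the epithelial and the endothelial gate, a difference that was not tested because there is 1 library per group. Cxcl1 had a log2 ratio of -1.46 in endothelial-gated and 1.18 in epithelial-gated cells, and Cxcl2 of -1.40 and 1.56. Ccl11 had 3.51 in the endothelial gate, where 1 cKO cell held 98.0% of the UMIs, and -1.23 in the epithelial gate.

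Barcodes that passed no gate, or more than 1, entered no comparison, but in cKO they held Cxcl13, Cxcl10 and Cxcl9 above the Ctrl level, while all ligands together stood at 16050.2 CPM in Ctrl and 16179 in cKO. Cxcl13 stood at 3072.38 CPM in the 73 ungated cKO cells and 10.4 in the 21 ungated Ctrl cells, and 5 cells held 97.4% of its 3371 UMIs. The cell with the most had a fibroblast score of 0.55, just under the gate, and a lymphoid stroma score of 1.31. Of all Cxcl13 UMIs in cKO cells, 51.5% were in such cells, so the fibroblast levels of Cxcl13 leave much of it out. Cxcl10 stood at 424.719 CPM there and Cxcl9 at 104.813, with 76.0% and 83.5% of the UMIs in 1 cell.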

How the results depend on the processing

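Counts of higher ligands stayed within 1.5 times of the reported ones under every alternative run: 10 to 17 in the epithelial, 5 to 8 in the endothelial and 8 to 12 in the fibroblast gate. Small counts of lower ligands moved. At 1.5-fold they were 6 (epithelial, from 2), 4 (endothelial, from 2) and 1 (fibroblast, from 0). The epithelial count was 1 with 50 UMIs, the stricter gate, all deposited barcodes, a gate score of 0.4, equally weighted subgates, or without the 1% of cells richest in chemokines or each gene's top cell. The fibroblast count was 1 with 1 UMI in each library, the stricter gate, or without Ctrl cell 1, 2 or 4, and 2 at a gate score of 0.4. The log2 ratio of Ccl19 in the epithelial gate, -2.30, turned to 0.10 as a mean over cells and 1.02 without each gene's top cell. Of the ligands called, 12 of 15, 4 of 8 and 7 of 11 stayed past 2-fold in the same direction under every scaling, gate and filter run. Shares depend on depth: for Cxcl2 in epithelial cells they were 14.9% and 27.5% at 2000 UMIs per cell and 32.5% and 44.8% unthinned, and for Cxcl10 in endothelial cells 13.0% and 28.1% unthinned. Scaling by the trimmed mean of M-values raised the log2 ratios in 2 gates, for Cxcl1 from 1.18 to 1.28 in the epithelial and from 1.17 to 1.36 in the fibroblast gate. In the endothelial gate it lowered them slightly, for Cxcl1 from -1.46 to -1.49. The gate, cell and top-cell alternatives not in the plan were chosen after seeing the data. No paired analysis was possible because each group has 1 library, and leaving out a library would leave no comparison.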
